A study of Mus musculus with 4 samples.

Results

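CpG island shores are the flanks of CpG islands (CGIs), where CpGs become sparser. Beside an unmethylated island the methylation level climbs there to that of the surrounding genome. A CGI was taken as the union of overlapping 500-bp windows that each began at a CpG and contained at least 25 CpGs, which gave 29613 autosomal CGIs with a median length of 930 bp. Shores were the autosomal 200-bp bins that had under 100 bp inside a CGI and at least 100 bp within 2 kb of one. A bin was compared when it held 2 or more CpGs and every library had 10 or more calls there, a call being 1 reading of a CpG cytosine as methylated or not. These conditions left 248144 shore bins of 4074587 bins in all, 6.09% of the bins compared, and they kept 82.9% of the 299354 shore bins with at least 2 CpGs. The choice used position, CpG count and the number of calls, and no methylation level entered it.

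The methylomes of 2 epithelial populations of the mouse colon were mapped by whole-genome bisulfite sequencing at the start and the end of suckling. The 4 groups crossed the population (ISC or differentiated) with the age (P0 or P21), P being the postnatal day. All mice were of strain C57 and came from crosses of wild-type animals with the Lgr5-EGFP-CreER knock-in line, in which the endogenous Lgr5 regulatory sequences drive EGFP and an inducible Cre. ISCs were sorted as Lgr5-EGFP+, and differentiated cells as EpCAM+ and Lgr5-EGFP-, so the latter hold every EpCAM+ cell without reporter signal, whatever its lineage. The P0 material was pooled from litters and the P21 material from reporter-positive offspring, and the sources used here do not say whether pups without the reporter were set aside at P0. Each group had 1 library, so there are no replicates, litter and age cannot be told apart, and each test below compares 2 libraries and not the conditions. Standard errors (SE) and intervals of levels therefore cover counting error only, and they take every call as independent. Intervals of shares of bins take every bin as independent, although neighbouring bins can change together. None of them covers the spread between animals. Reads amplified by PCR without molecular identifiers, and neighbouring CpGs on a read, are not independent molecules, so even the counting error may be understated.

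Most CGIs at gene starts are kept free of methylation in every tissue, while the genome around them is densely methylated. Shores sit on the border between these states, and methylation that differs between tissues, or that shifts in cancer and during development, is known to fall often in shores. In the intestinal epithelium methylation is copied at each division of the rapidly cycling stem cells by DNMT1 and can be taken off by TET enzymes, and losses inside genes often coincide with enhancers that become active.

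The sequences below come from the longest runs of bins that changed from P0 to P21 in ISCs, and each is the bin of its run, outside untranslated regions, that changed most. They are shown from the plus strand of mm9, 5′ to 3′, with every CpG in capitals. In the following 3 bins the methylation level rose. The first lies within Duoxa2 and spans a coding exon, and the second lies outside genes near Cyr61. The third lies upstream of the start site of the Hoxa6 transcript with the longest coding sequence.
Duoxa2, chr2:122125801-122126000: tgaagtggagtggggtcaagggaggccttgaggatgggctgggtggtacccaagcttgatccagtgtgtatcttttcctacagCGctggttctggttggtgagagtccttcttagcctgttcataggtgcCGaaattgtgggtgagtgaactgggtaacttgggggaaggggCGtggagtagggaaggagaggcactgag
Cyr61, chr3:145314801-145315000: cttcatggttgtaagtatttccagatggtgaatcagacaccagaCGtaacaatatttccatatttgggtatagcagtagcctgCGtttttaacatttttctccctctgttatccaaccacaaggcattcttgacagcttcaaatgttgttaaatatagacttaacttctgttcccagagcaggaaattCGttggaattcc
Hoxa6, chr6:52160201-52160400: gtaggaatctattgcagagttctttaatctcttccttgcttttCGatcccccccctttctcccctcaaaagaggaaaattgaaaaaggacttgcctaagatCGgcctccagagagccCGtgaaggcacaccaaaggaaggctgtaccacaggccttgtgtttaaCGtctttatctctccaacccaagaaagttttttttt

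In the Duoxa2 bin, with 3 CpGs, 11 of 37 calls were methylated in ISCs at P0 (29.7%) and 52 of 57 at P21 (91.2%), against 41 of 116 (35.3%) and 93 of 111 (83.8%) in differentiated cells. The Cyr61 bin, also with 3 CpGs, went from 8 of 29 calls (27.6%) to 49 of 57 (86.0%) in ISCs. In differentiated cells it rose less, from 17 of 27 (63.0%) to 34 of 43 (79.1%). In the Hoxa6 bin 3 of 77 calls (3.90%) were methylated in ISCs at P0 and 36 of 76 (47.4%) at P21, against 4 of 58 (6.90%) and 20 of 63 (31.7%) in differentiated cells. All 3 bins lay between 823.5 and 1042 bp from the CGI edge. In the next 2 bins, which lie in intron 1 of Adck3 and of Abhd2, the level fell.
Adck3, chr1:182124201-182124400: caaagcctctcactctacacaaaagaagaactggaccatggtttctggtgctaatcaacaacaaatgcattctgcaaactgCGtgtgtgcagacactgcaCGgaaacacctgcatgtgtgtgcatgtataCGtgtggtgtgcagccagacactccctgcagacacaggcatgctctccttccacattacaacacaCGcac
Abhd2, chr7:86419601-86419800: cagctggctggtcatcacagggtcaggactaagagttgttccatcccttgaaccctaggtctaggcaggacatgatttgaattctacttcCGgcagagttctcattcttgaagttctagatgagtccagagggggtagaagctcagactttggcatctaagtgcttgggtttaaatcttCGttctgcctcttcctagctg

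In the Adck3 bin, 33 of 40 calls were methylated in ISCs at P0 (82.5%) and 1 of 39 at P21 (2.56%). Differentiated cells showed the same course there, from 76.3% to 6.49%. The Abhd2 bin holds just 2 CpGs, and its level in ISCs went from 91.3% of 46 calls to 17.2% of 64 calls. The change of these bins thus rested on between 2 and 4 CpGs, but they were picked as the most changed of their runs. Shore bins called in ISCs had a median of 4 CpGs, for gains as for losses. The median was 3 CpGs over all shore bins and 11 over CGI bins.

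Total calls were between 1023427645 and 1188114423 per library, and the median shore bin had 59 (P0) and 65 (P21) calls in ISCs, and 92 and 78 in differentiated cells. The labelled cell types were checked at start sites of marker genes, where a methylation level is no measure of expression. Bins within 1 kb of the start site of Epcam, the epithelial adhesion molecule used in the sort, had levels of 5.30% and 3.41% in ISCs at the younger and the older age, and of 3.26% and 2.80% in differentiated cells. Those of Ptprc, the pan-leukocyte gene CD45, had 74.2% and 70.7% in ISCs and 76.99% and 67.1% in differentiated cells, and those of Lgr5 itself 2.97%, 1.49%, 1.75% and 5.77% in the same order. The markers were not uniform within a cell type. The blood gene Coro1a, which has a CGI at its start, stood at 14.8% to 20.4% over the 4 libraries, and the other blood genes with compared bins at 67.1% or more. Of the mesenchymal genes, Vim and Pdgfra stood at 7.03% or less, Col1a1 and Col1a2 at 8.37% to 18.8%, and Pdgfrb and Acta2 at 47.1% to 71.2%. Of the markers of differentiated colon cells, Muc2, Krt20 and Alpi stood at 49.4% to 69.5%, and Slc26a3 went from 28.2% to 11.9% in ISCs and from 24.2% to 9.85% in differentiated cells.

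Averaged over shores, the level was 67.03% (P0) and 66.97% (P21) in ISCs, and 66.88% and 66.50% in differentiated cells. This lay between the mean of CGI bins (31.4% in ISCs at P0) and that of bins further away (79.6%). The mean hid a wide spread of single shores. By their mean over the 4 libraries, 15.1% of shore bins were under 20%, 32.4% were between 20% and 80%, and 52.6% were above 80%. Of CGI bins 8.61%, and of the bins further away 29.6%, lay between 20% and 80%, so intermediate levels were the most frequent in shores. From P0 to P21 the shore mean moved by -0.0661 points (SE 0.0151) in ISCs and by -0.383 points (SE 0.01395) in differentiated cells. The sign in ISCs was not uniform over the genome, with a lower mean at P21 on 10 of 19 autosomes and a higher one on 9, while in differentiated cells the mean was lower on 19 of 19. All bins compared changed by -0.271 points in ISCs and -0.723 points in differentiated cells. CGI bins changed by 0.692 and 0.587 points, and bins further away by -0.324 and -0.799 points. With these settings the shore mean thus fell less than that of all bins in both populations. In shores, differentiated cells were lower than ISCs by 0.151 points at P0 and by 0.468 points at P21. The near-zero change in ISCs had the opposite sign under several other settings of the shore definition, given in the closing section, and with a minimum of 4 CpGs the change in differentiated cells turned as well, to 0.0585 points.

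Single shore bins were called as changed when the adjusted p of Fisher's exact test (two-sided, on calls) was below 0.05 (Benjamini-Hochberg over all 4074587 bins) and the levels differed by over 15 points. With age, ISCs gained methylation in 4349 shore bins (1.75%) and lost it in 5009 (2.02%). Over all bins compared, 1.08% gained and 1.48% lost, so both directions were more frequent among shores. Differentiated cells gained in 4540 shore bins (1.83%, against 0.993% of all bins) and lost in 6099 (2.46%, against 1.86%). Gains made up 46.5% of the called shore bins in ISCs (95% exact binomial interval 45.5% to 47.5%), compared with 77.9% in CGI bins and 40.6% in the bins further away. In differentiated cells the same shares were 42.7% (41.7% to 43.6%), 78.7% and 33.0%. The majority in ISC shores turned with a minimum of 4 CpGs, where gains made up 52.7%, and with shores of 1 kb, where they made up 51.0%. Over all bins, shores stood between CGIs and the open genome in direction and above both in the frequency of calls. Among bins between 20% and 80% alone, CGI bins were called more often (gains 12.4%, losses 2.89% in ISCs) than shore bins (4.36% and 4.79%). This window was set by the mean over all 4 libraries, so a change could itself bring a bin into it. The CGI bins in it also had more calls (medians of 110 and 124 at P0 and P21 in ISCs, against 57 and 62) and more CpGs (8 against 3). The rates therefore do not compare CGIs and shores of equal level at P0. The called changes were large, with a median size of 27.7 points for gains and 30.5 points for losses in ISCs. Differentiated cells had more called bins but also more calls per bin, and with the calls of each bin thinned to its lowest library the order of the populations turned, with 6239 shore bins called in ISCs and 5045 in differentiated cells.

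Distance from the CGI edge ordered both the level and the change. In ISCs at P0 the mean level was 48.1% in the first 200 bp, 56.1% in the next 200 bp, 69.2% at 600 to 800 bp and 76.7% at 1800 to 2000 bp. These means pool shores of unmethylated and of methylated CGIs, which are set apart below. In differentiated cells at P0 the last 200 bp of the shore stood at 76.6% and the first 200 bp beyond it at 76.8%. At 3800 to 4000 bp the level was 77.9%, so the pooled rise was small beyond 2 kb. Beside start-site CGIs the level in these cells still went from 76.3% to 79.2% downstream between 2 and 4 kb. Upstream it went from 74.7% to 75.8%. The change with age in ISCs passed from a gain of 0.569 points (SE 0.0363) in the first 200 bp to -0.394 points (SE 0.0536) at 1800 to 2000 bp. It was positive on 18 of 19 autosomes in the first step and negative on 17 of 19 in the last. In differentiated cells the change went from 0.246 to -0.803 points over the same range. By side of the CGI, the mean change in ISCs stayed positive on the upstream flank to 1200 bp, with 0.164 points at 400 to 600 bp, where the downstream flank changed by -0.297 points.

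**Figure D1:**
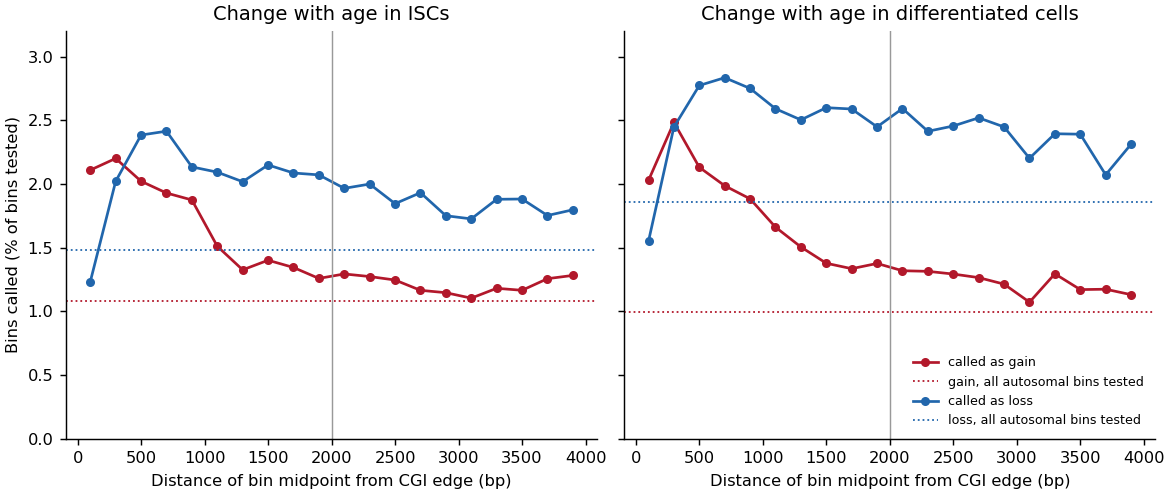
The plot of calls by distance gives the percent of bins called as gain (red) or loss (blue) against the distance of the bin from the CGI edge in bp, for the change with age in ISCs (left) and differentiated cells (right), with the vertical line at the shore limit of 2000 bp and dotted lines for all bins compared. In ISCs gains fall from 2.11% in the first 200 bp to 1.26% at 1800 to 2000 bp, while losses rise from 1.23% to a peak of 2.42% at 600 to 800 bp.

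The counts of called bins followed the same order, as the plot of calls by distance shows. In the first 200 bp, ISCs gained in 2.11% and lost in 1.23% of the bins. From 400 bp outwards losses were the more frequent, with 2.39% against 2.02% at 400 to 600 bp and 2.07% against 1.26% at 1800 to 2000 bp. In differentiated cells the inner step held 2.03% gains and 1.55% losses, and losses peaked at 2.83% at 600 to 800 bp. Gains neared the background with distance, but losses did not return to it within the shore, and between 3800 and 4000 bp ISCs still lost in 1.80% of the bins. Since levels also differ along the shore, bins between 20% and 80% were described apart. Among those, the share of gains in ISCs was 61.5% within 400 bp of the edge (59.3% to 63.7%) and 42.7% further out (41.4% to 44.0%). The window rests on the mean of the compared libraries, so it does not match bins on their level at P0.

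The change also differed by side, which was read from the direction in which the nearest protein-coding gene is transcribed. Of the CGIs with a compared shore, 10351 overlapped the 500 bp on either side of a start site on 1 strand, 1027 did so on both strands, 5957 lay in a gene body, 1276 touched a last exon and 10363 lay outside protein-coding genes. Shores downstream of start-site CGIs, on the side of the gene, went from 57.2% to 56.3% in ISCs, a change of -0.907 points (SE 0.0313), and from 56.9% to 55.9% in differentiated cells. Shores upstream of the same kind of CGI, on the promoter side, went from 62.2% to 62.4% in ISCs, a change of 0.171 points (SE 0.0339), and changed by -0.310 points in differentiated cells. With a minimum of 4 CpGs the changes in ISCs were -0.306 points downstream and 0.494 points upstream, and the upstream change in differentiated cells turned to 0.0922 points. The downstream change was negative on 19 of 19 autosomes in both populations. The upstream change was less uniform, being positive on 14 of 19 in ISCs and negative on 16 of 19 in differentiated cells. ISCs lost in 3.53% of downstream bins and in 2.13% of upstream bins, and gained in 2.24% and 1.90%. The 1027 CGIs with start sites on both strands have a gene on either flank, and there the mean changed by -1.53 points on the upstream and by -1.496 points on the downstream side in ISCs.

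**Figure D2:**
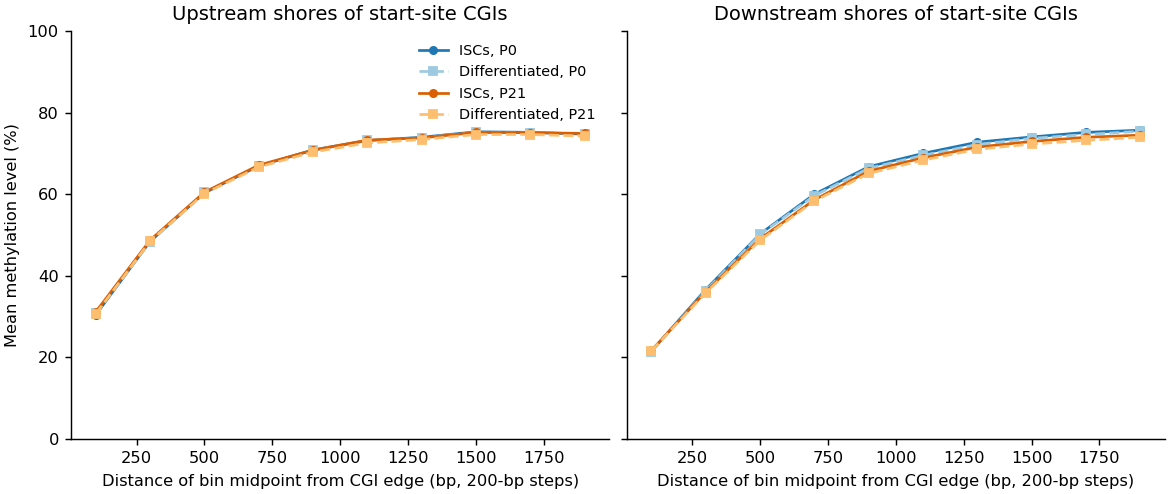
The plot of level by distance gives the mean methylation level (%) of shore bins upstream (left) and downstream (right) of start-site CGIs against distance from the CGI edge in 200-bp steps, with 1 line for each library. Upstream the 4 lines lie close together, at 72.6% to 73.3% at 1000 to 1200 bp, and downstream the P21 libraries lie below the P0 libraries from 400 bp on, at 74.5% against 75.7% in ISCs at 1800 to 2000 bp.

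The plot of level by distance places the loss along the downstream flank. In the first 200 bp downstream the mean level was 21.5% at P0 and 21.7% at P21 in ISCs, a slight gain of 0.194 points. At 600 to 800 bp it was 60.0% and 58.6%, and the change stayed between -1.08 and -1.36 points from 400 bp to the end of the shore. Losses were called in 4.56% of the downstream bins at 400 to 600 bp and still in 3.42% at 1800 to 2000 bp. The difference between the sides did not end with the shore, since from 2 to 4 kb the downstream flank changed by -0.747 points (losses 2.52%) and the upstream flank by -0.00989 points (losses 1.93%) in ISCs. Within the shore, 38.0% of downstream and 37.5% of upstream bins lay between 20% and 80%. Among bins between 20% and 80% alone, an alternative added after the data were seen, ISCs lost in 7.17% downstream and in 4.30% upstream, and gained in 4.86% and 4.18%. Here too a change could itself bring a bin into the window.

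Within the gene, most of the downstream losses lay in the first intron, which also held most of the bins. Of 54771 downstream bins 36013 had their midpoint in intron 1, with 1399 of the 1931 losses, and there the mean changed by -1.19 points and 3.89% of bins lost. The 10716 bins in later introns changed by -0.581 points, with losses in 2.62%, and the 4307 bins in later exons by -0.302 points, with losses in 3.58%. The 1666 bins still in exon 1 went the other way, with a change of 0.608 points, gains in 3.12% and losses in 2.94%. Bins between 20% and 80% made up 40.1% of intron 1 and 33.8% of later exons. The mean in differentiated cells changed by -1.21 points in intron 1 and by 0.328 points in exon 1.

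**Figure D3:**
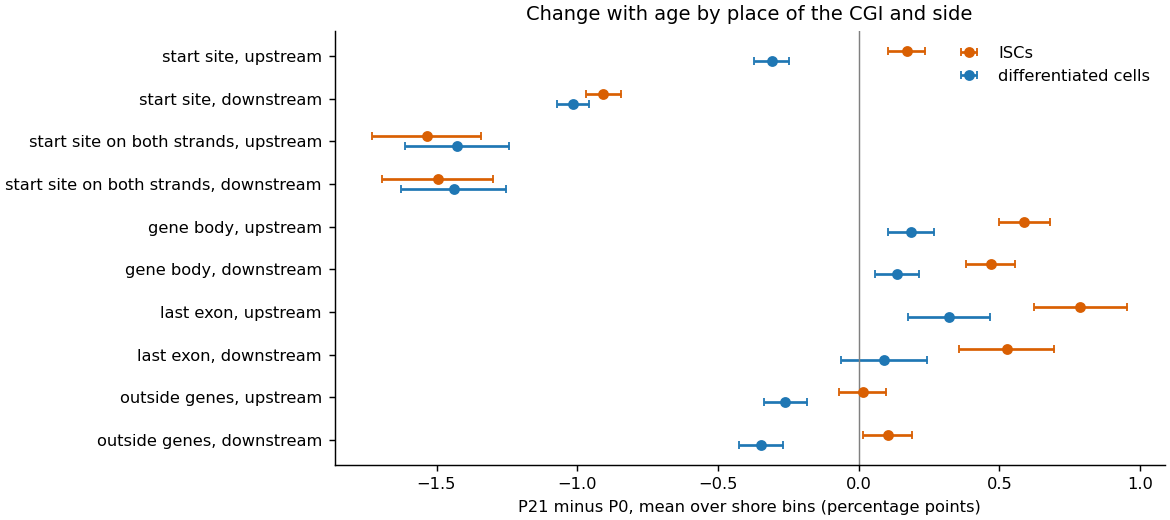
The plot of change by place gives the P21 minus P0 difference in mean methylation level (percentage points) of shore bins by the place of the CGI and the side, with points for ISCs (orange) and differentiated cells (blue) and bars for 95% counting intervals. Shores downstream of start sites lie at -0.907 and -1.02 points, those of CGIs with start sites on both strands near -1.5 points, and those of gene-body and last-exon CGIs to the right of 0 in ISCs.

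The mean rose in shores of CGIs within genes, as the plot of change by place shows. Shores of gene-body CGIs rose by 0.527 points in ISCs (SE 0.0318), on 19 of 19 autosomes, with gains in 1.90% and losses in 1.53% of 52567 bins. Shores of last-exon CGIs rose by 0.654 points in ISCs (gains 2.04%, losses 1.65%). The corresponding changes in differentiated cells were smaller, at 0.159 and 0.203 points, and in last-exon shores of differentiated cells 282 bins gained and 304 lost. They were also less uniform. The gene-body change in differentiated cells was positive on 13 autosomes and negative on 6, and the last-exon change positive on 12 and negative on 7. Shores of CGIs outside protein-coding genes were the least often called, with gains in 1.14% and losses in 1.01% of 66564 bins in ISCs, which is near the background of gains and below that of losses. In differentiated cells the mean of these shores changed by -0.303 points (SE 0.0283), with gains in 1.09% and losses in 1.36%.

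The state of the island itself separated the shores further. Of the CGIs with a compared shore, 14958 had a mean level under 20%, and their 149732 shore bins averaged 57.0% in ISCs at P0, with gains in 2.21% and losses in 2.67%. Another 11523 CGIs, dense in CpGs but methylated above 80%, had shores at 85.0%, of which 0.588% gained and 0.784% lost. In ISCs at P0 the level rose outwards beside CGIs under 20%, from 23.1% in the first 200 bp to 73.8% at 1800 to 2000 bp. Beside CGIs above 80% it fell, from 88.3% to 83.2%. Beside those between 20% and 80% it rose from 66.1% to 75.0%. The 2441 CGIs of intermediate level had the shores that gained most often (2.55%), and their mean rose by 0.698 points in ISCs. The innermost gains often continued a gain of the island. For 36.6% of the gaining bins in the first 200 bp, the same CGI also held a bin called as gain in ISCs, against 11.3% of the gaining bins at 1800 to 2000 bp and 5.36% of all shore bins. For losing bins, a called loss in the CGI was present for 13.6% in the first 200 bp and 3.78% at 1800 to 2000 bp, against 1.82% of all shore bins. Most outer shore changes therefore stood beside a CGI with no called change of the same direction.

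Called bins were spread thinly over many CGIs. Of 28974 CGIs with a compared shore, 2962 had a gaining shore bin in ISCs (10.2%), 3342 had a losing one (11.5%), 337 had both and 23007 had neither. The most at 1 CGI were 12 gaining and 10 losing bins. Of 2814 gaining CGIs with compared bins on both flanks, 250 gained on both (8.88%), and of 3189 losing CGIs 286 lost on both (8.97%). A gain stood on 6.35% of all flanks and on 16.3% of those opposite a gaining flank, and a loss on 7.20% and on 16.5% of those opposite a losing flank. At 246 CGIs 1 flank gained while the other lost. Neighbouring called bins formed 3597 gaining runs, of which 85.0% were a single bin and 146 had 3 bins or more, and 4157 losing runs, of which 84.7% were a single bin and 154 had 3 or more. The longest runs are described next.

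**Figure D4:**
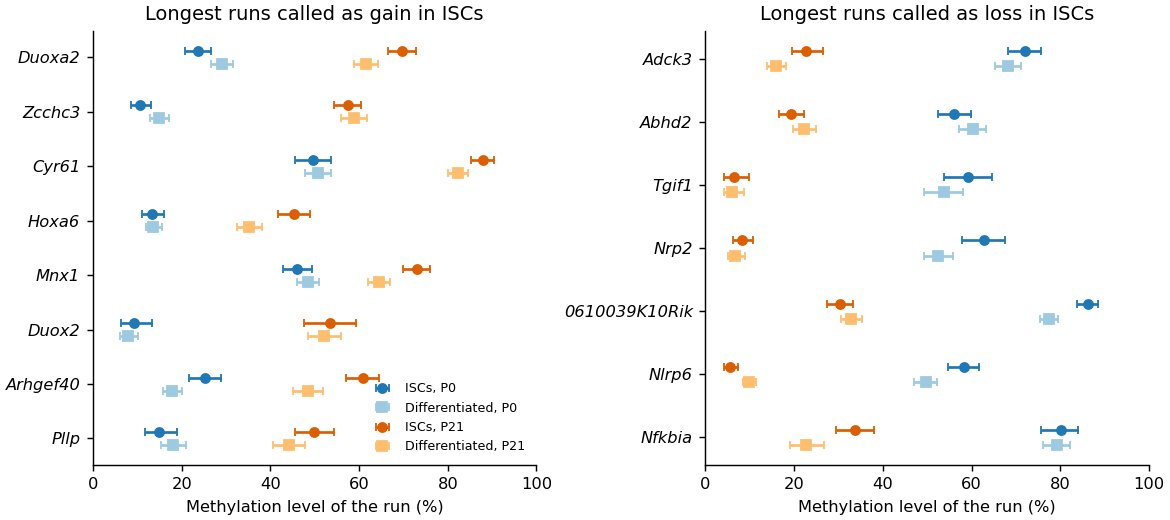
The plot of the longest runs gives the methylation level (%) over all calls of each of the 8 longest gaining (left) and 7 of the 8 longest losing (right) runs in ISCs, with circles for ISCs and squares for differentiated cells, blue for P0 and orange for P21, and bars for 95% Wilson intervals. In each gaining run both P21 libraries lie above both P0 libraries, and in each plotted losing run they lie below them.

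The longest gaining run, with 8 bins and 37 CpGs, lay at chr2:122125001-122126600 within Duoxa2, which encodes the maturation factor of dual oxidase 2. Its level rose from 23.6% to 69.8% in ISCs and from 29.0% to 61.6% in differentiated cells. The neighbouring gene Duox2, the oxidase that releases hydrogen peroxide at the epithelial surface in defence against microbes, had a run of its own at chr2:122121601-122122600, over coding exons and introns downstream of its start-site CGI. That run went from 9.19% to 53.5% in ISCs and from 7.87% to 52.1% in differentiated cells. The CGIs of both genes stayed at 1.12% to 1.63% in ISCs at both ages, so the pair gained in the shores while the islands remained unmethylated.

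Hoxa6 and Mnx1 encode homeobox transcription factors. The run at chr6:52159201-52160400 lay upstream of the start site of the Hoxa6 transcript with the longest coding sequence. It overlapped the annotated spans of Hoxa6 and Hoxa3 and was at 13.3% and 13.6% at P0. At P21 it was at 45.2% in ISCs and 35.2% in differentiated cells. Its CGI rose too, from 0.564% to 9.43% in ISCs. The Mnx1 run at chr5:29798401-29799600 went from 46.1% to 73.0% in ISCs and from 48.6% to 64.5% in differentiated cells. The CGI beside it lies 1445 bp beyond the reference transcript of Mnx1 and was itself of intermediate level, at 58.5% at P0 and 79.2% at P21 in ISCs.

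Zcchc3, which encodes a zinc finger protein of innate nucleic acid sensing, had a run of 7 bins in its only exon at chr2:152237801-152239200, beyond the coding part. Its level went from 10.6% to 57.5% in ISCs and from 14.9% to 59.0% in differentiated cells. The run near Cyr61, the gene of a secreted matrix protein induced by YAP, lay at chr3:145314201-145315400 outside genes, beside a CGI that ended 2993 bp from the gene. It rose from 49.7% to 88.0% in ISCs and from 50.8% to 82.4% in differentiated cells, while its CGI went from 2.12% to 0.702% in ISCs. Arhgef40, a guanine nucleotide exchange factor, and Pllp, the membrane protein plasmolipin, gained in intron 1. The Arhgef40 run at chr14:52605401-52606400 went from 25.2% to 60.9% in ISCs and from 17.9% to 48.6% in differentiated cells. The Pllp run at chr8:97218401-97219400 went from 14.9% to 49.9% in ISCs and from 18.03% to 44.2% in differentiated cells. Each of the 8 gaining runs had at least 3 bins that were also called as gain in differentiated cells.

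Losing runs in first introns were those of Adck3, Abhd2 and Nrp2. In Adck3, a kinase-like gene of coenzyme Q synthesis, 6 bins at chr1:182123601-182124800 went from 72.1% to 22.8% in ISCs and from 68.3% to 15.9% in differentiated cells. In Abhd2, which encodes a lipid hydrolase, 6 bins at chr7:86419401-86420600 went from 56.1% to 19.3% and from 60.3% to 22.3%. The start-site CGIs of both genes stayed at or under 1.02% in ISCs. The run in intron 1 of Nrp2, a receptor of semaphorins and VEGF, at chr1:62751401-62752400, went from 62.8% to 8.17% in ISCs and from 52.5% to 6.67% in differentiated cells. It adjoined a CGI within the gene whose own level went from 7.40% to 0.210% in ISCs.

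Nlrp6, an inflammasome sensor of the intestinal epithelium, went from 58.2% to 5.60% in ISCs and from 49.7% to 9.82% in differentiated cells, over 5 bins at chr7:148109201-148110200 in a coding exon and the intron after it. Nfkbia, which encodes the NF-κB inhibitor IκBα, went from 80.1% to 33.6% in ISCs and from 79.3% to 22.7% in differentiated cells over 5 bins at chr12:56591401-56592400, from intron 2 into later exons. Both runs were called along their whole length in both populations. Outside genes, beside a CGI 9136 bp from the TGF-β repressor gene Tgif1, a run at chr17:71182001-71183000 went from 59.3% to 6.54% in ISCs and from 53.7% to 6.02% in differentiated cells. The run upstream of 0610039K10Rik at chr2:163468401-163469400, inside Serinc3, went from 86.3% to 30.3% and from 77.5% to 32.9%.

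The longest runs called in differentiated cells, other than those above, were largely called in ISCs too. Among gains these lay in Rcc2, a regulator of chromosome condensation (51.5% to 84.3% at chr4:140260001-140261400), in Kremen2, a receptor of the Dickkopf inhibitors of Wnt signalling (26.8% to 50.4% at chr17:23881001-23882400), and beside a CGI 32032 bp from Scrt2, a neuronal repressor gene (11.1% to 38.0% at chr2:151875401-151876800). In ISCs the Rcc2 run went from 45.5% to 83.6%, the Kremen2 run from 28.8% to 51.7% and the Scrt2 run from 12.3% to 44.1%. Among losses they lay in intron 1 of the transcription factor gene Klf9 (48.5% to 14.7% at chr19:23217601-23218800), upstream of the tRNA synthetase gene Vars (67.9% to 33.9% at chr17:35135601-35136800), and just downstream of the short gene of the transcription factor Cebpb (53.0% to 17.7% at chr2:167516001-167517200). In ISCs these went from 50.9% to 20.3%, from 70.3% to 33.4% and from 55.7% to 22.6%. The run upstream of Vars overlapped another gene, D17H6S56E-5. In ISCs 5 of the 7 bins at Rcc2, 2 of 7 at Kremen2, 4 of 7 at Scrt2, and 5 of 6 each at Klf9, Vars and Cebpb were called in the same direction.

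The 2 comparisons of the ages share no library, so their calls can be set side by side. The sources used here do not say whether both populations of an age came from the same pools of mice, and with shared animals the overlaps are not independent. Of 4349 shore bins that gained in ISCs, 1544 also gained in differentiated cells, 35.5% (34.1% to 37.0%) of the ISC gains and 34.0% of the gains in differentiated cells. Of 5009 losing bins, 2433 were also lost in differentiated cells, 48.6% (47.2% to 49.97%) and 39.9%. Over all bins compared, the shares of ISC calls were 23.8% for gains and 45.5% for losses. The share for gains was 37.2% at start sites, 35.7% in gene bodies, 31.3% at last exons and 31.7% outside genes. Gains in differentiated cells were themselves more frequent among shore bins (1.83%) than among all bins (0.993%), so the larger overlap in shores stands beside a higher rate of calls. In the bins that gained in ISCs the mean change in differentiated cells was 14.7 points, and in the bins that lost it was -21.3 points, so many bins without a call moved the same way.

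Fewer shore bins differed between the populations than between the ages. At P0, differentiated cells were higher than ISCs in 715 shore bins (0.288%, against a background of 0.288%) and lower in 669 (0.270%, against 0.22%). At P21 they were higher in 196 (0.0790%, against 0.0712%) and lower in 338 (0.136%, against 0.111%). The shares were thus close to those over all bins. Of the 715 bins higher at P0, 3 were also called higher at P21, and of the 669 lower bins 5 were called lower at P21. These shares, 0.420% and 0.747%, compare with 0.724% and 1.08% over all bins, and lay above the shares of shore bins called at P21. Of the same bins, 8 of the 715 and 3 of the 669 were called in the opposite direction at P21. Runs were short, with 98.9% of the higher and 97.9% of the lower ones at P0 made of a single bin.

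The 3-bin run at Axin2, a feedback inhibitor and target gene of Wnt signalling, was the longest of the higher ones at P0. It lay in a coding exon at chr11:108784601-108785200, and its level was 20.9% in ISCs (17.7% to 24.5%) and 49.1% in differentiated cells (45.6% to 52.7%). At P21 it was 0.962% and 2.14%, so the 2 populations differed at birth and were both near 0 at the older age. Boc, a co-receptor of hedgehog ligands, gave the same picture in intron 1 at chr16:44557201-44557600, with 25.1% and 56.9% at P0 and 1.67% and 0.980% at P21. Upstream of Mab21l1, a developmental regulator, the levels at chr3:55586001-55586400 were 23.5% and 46.1% at P0 and 61.1% and 53.9% at P21. That run overlapped the gene Nbea. On the lower side, the imprinted gene Peg10 had 72.9% (ISCs) against 38.6% (differentiated cells) at P0 at chr6:4699001-4699600, beside a CGI at 55.8%, and 58.0% and 45.0% at P21. In intron 1 of the transcription factor gene Bcl11b the levels at chr12:109238001-109238600 were 62.0% and 33.6% at P0 and 31.1% and 29.8% at P21. Upstream of Mycbp, at chr4:123581001-123581400, they were 78.7% of 94 calls and 25.7% of 74 calls at P0, and 47.1% and 61.5% at P21.

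At P21 no run exceeded 2 bins. Differentiated cells were higher in Hoxd10 (37.2% against 13.3% at chr2:74532201-74532600), a posterior Hox gene, where both populations had stood near the higher value at P0 (33.7% and 37.1%). The same held near Nr2f2, a nuclear receptor gene, with 36.7% against 13.2% at P21 and 38.4% against 30.8% at P0 (chr7:77477201-77477600). In an intron of Notch2, a receptor of the Notch pathway, the levels at chr3:97949201-97949600 were 66.4% and 44.3% at P21, against 80.3% and 78.0% at P0. The ISC level was lower at P21 than at P0 at all 3 genes, and at Notch2 the level of differentiated cells also dropped by 13.9 points. Differentiated cells were lower near Tmem44 (16.03% against 47.5% at chr16:30510201-30510600), in Myo10, an unconventional myosin (14.2% against 42.5% at chr15:25736801-25737200), and in Bsn, a presynaptic scaffold gene (48.1% against 72.5% at chr9:108015001-108015400).

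Shores of start-site CGIs were then read gene by gene, for 15 gene lists and beside the 12367 genes with such shores. Over all of these genes 1694 had a shore bin called as gain in ISCs, 2371 had one called as loss and 226 of them had both, with 2.01% of bins gained and 2.87% lost when a bin shared by genes was counted once (2.16% and 3.35% in differentiated cells), and the median over genes of the mean shore change was -0.499 points. The lists were drawn up with results of the series known, so their counts are descriptions and carry no test. Levels given for a listed gene cover only its bins called in that direction in ISCs, which were picked on their change.

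**Figure D5:**
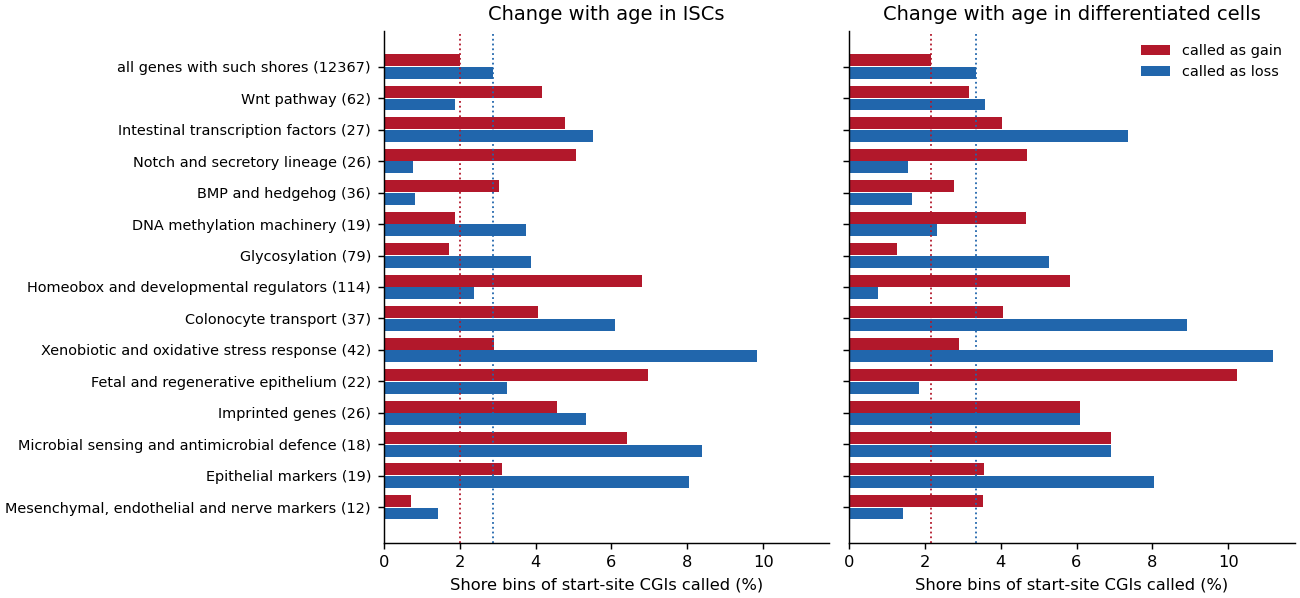
The plot of gene lists gives the percent of start-site shore bins called as gain (red) or loss (blue) for each gene list, with the number of genes in brackets, for the change with age in ISCs (left) and differentiated cells (right), and dotted lines at the values over all genes with such shores. Homeobox genes stand at 6.81% gains in ISCs and genes of xenobiotic response at 9.84% losses.

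Among developmental and signalling genes, more had a gaining than a losing bin in ISCs, and most had neither. Of 114 homeobox and developmental regulators, 26 had a gaining and 11 a losing shore bin in ISCs, with 6.81% of bins gained, 2.38% lost and a median change of 1.26 points. The homeobox gene Gsc went from 24.3% to 79.9% in ISCs and from 21.7% to 61.7% in differentiated cells over 3 of its 15 shore bins. Hoxa3 went from 3.802% to 45.1% and from 4.63% to 26.0% over 6 of 8 bins, and the T-box gene Tbx1 from 28.6% to 72.8% and from 37.2% to 68.4% over 4 of 6. Hoxa4, in the same cluster as Hoxa3, lost in 2 of its 10 bins, from 89.8% to 26.4% in ISCs. Of 62 genes of the Wnt pathway 17 gained and 4 lost in ISCs (4.17% and 1.87% of bins), and in differentiated cells 3.17% of their bins gained and 3.60% lost, against 2.16% and 3.35% over all genes. Ascl2, a Wnt-responsive master regulator of ISCs, went from 42.9% to 96.4% in ISCs and from 33.2% to 88.1% in differentiated cells, in a single bin 1496 bp upstream of its CGI. The Wnt receptor genes Lrp5 (16.5% to 64.8% in 1 of 12 shore bins) and Fzd5 (32.5% to 70.2% in 2 of 10) gained in ISCs. The 4 genes that lost included the pathway's effector Ctnnb1, encoding β-catenin (37.5% to 7.74%), and the target genes Myc (78.0% to 50.6%) and Axin2 (27.2% to 1.34%), each over 4 bins.

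Notch genes showed a like split. Of 26 genes of the Notch pathway and secretory lineage 6 gained and 2 lost in ISCs, with 5.08% of bins gained and 0.781% lost. Hes5, a Notch target gene, went from 54.0% to 87.4% in ISCs and from 57.1% to 85.0% in differentiated cells over 5 of 14 bins, all upstream. The ligand gene Dll1 went from 42.1% to 76.3% in ISCs over 2 of its 8 bins, and the target gene Hes1 lost in 1 of its 9 bins, from 22.2% to 4.17%. Of 36 BMP and hedgehog genes 7 gained and 3 lost (3.04% and 0.829% of bins). Among them were the ligand gene Shh (49.0% to 86.8% in ISCs in 2 of 3 bins) and the hedgehog transducer gene Smo (69.1% of 55 calls to 28.3% of 46 in 1 of 11 bins). Of 22 genes of fetal and regenerative epithelium 9 gained and 5 lost, with 6.98% of bins gained in ISCs (2.01% over all genes) and 10.2% in differentiated cells (2.16%). Igf2bp1, an RNA-binding protein of fetal tissues, went from 10.5% to 50.8% in ISCs and from 11.6% to 63.3% in differentiated cells in 1 bin.

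Among genes of xenobiotic and oxidative stress response, losses were more frequent than gains. Of 42 such genes 19 lost and 6 gained in ISCs, and 18 had neither call. Of their bins 9.84% lost and 2.91% gained, and the median change was -4.17 points. Differentiated cells lost in 11.2% of the bins of this list, against 3.35% over all genes. Cat, encoding catalase, went from 71.4% of 42 calls to 13.8% of 65 calls in ISCs in 1 bin, and Gstp1, a glutathione transferase gene, from 68.6% of 35 calls to 16.7% of 30. Both genes held that call in ISCs and none in that bin in differentiated cells. Of 27 intestinal transcription factors 9 gained and 7 lost in ISCs, with 4.78% of bins gained and 5.51% lost (2.01% and 2.87% over all genes). Vdr, the vitamin D receptor gene, had the largest loss of the list, from 69.2% to 7.93% in ISCs and from 67.5% to 6.35% in differentiated cells over 6 of its 12 shore bins, all downstream of the start-site CGI. The nuclear receptor gene Ppard went from 56.2% to 8.57% in ISCs in 1 of its 17 bins. Foxa2, a forkhead factor gene, gained from 30.4% to 84.3% in 1 of 4.

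Of 37 transport genes of colonocytes 8 gained and 9 lost in ISCs, with 4.07% of bins gained and 6.11% lost. The potassium channel gene Kcnq1 lost over 6 of 14 bins on both sides of its CGI, from 43.5% to 2.44% in ISCs and from 57.1% to 7.29% in differentiated cells. The glucose transporter gene Slc2a1 gained over 6 of 13 bins downstream of its CGI, from 20.8% to 48.2% and from 17.2% to 46.8%, and the sodium-proton exchanger gene Slc9a3 gained over 4 of 10, from 47.6% to 81.9% in ISCs. Of 18 genes of microbial sensing and defence 3 gained and 7 lost, with 6.40% of bins gained and 8.37% lost. Most of the 13 gained bins were those of the neighbours Duox2 and Duoxa2, which share bins, and Cxcl5, a neutrophil attractant, lost over 4 of 11 bins from 66.0% to 30.9% in ISCs. Of 19 epithelial marker genes 2 gained and 7 lost in ISCs, with 3.13% of bins gained and 8.04% lost (2.01% and 2.87% over all genes). Krt18, a keratin gene, rose from 45.4% to 70.4% over 5 upstream bins, and Spint1, a protease inhibitor gene, fell from 61.1% to 18.6% over 3.

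Of 79 glycosylation genes 14 gained and 16 lost in ISCs (1.72% and 3.89% of bins), and differentiated cells lost in 5.26% of bins, against 3.35% over all genes. St3gal3, a sialyltransferase gene, lost over 3 bins from 66.2% to 21.1% in ISCs and from 56.7% to 22.1% in differentiated cells. Of 19 genes of the DNA methylation machinery 3 gained and 6 lost in ISCs (1.87% and 3.74% of bins), and in differentiated cells 4.67% of their bins gained and 2.34% lost, against 2.16% and 3.35% over all genes. Dnmt3a, encoding a de novo methyltransferase, went from 19.8% to 64.5% in ISCs over 2 bins of its 13 and stood at 61.5% in differentiated cells at P21, and Tet3, encoding a demethylating dioxygenase, from 34.1% to 4.17% in ISCs in 1 bin. Of 26 imprinted genes 7 gained and 6 lost in ISCs, with 4.56% of bins gained and 5.32% lost. Grb10 rose from 28.5% to 60.9% in ISCs over 5 bins, while Peg10 and Sgce, which share a CGI and the same bins, fell from 73.5% to 48.2% over 4. Of 12 mesenchymal, endothelial and nerve markers 1 gained and 1 lost, at 0.709% and 1.42% of bins. The single blood marker with such a shore had no called bin.

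The study chose 5 shore genes on these samples and reported that all 5 lost methylation in ISCs during suckling. Its bisulfite pyrosequencing over more ages showed the same. The regions it measured may differ from the bins compared here. In these bins, called losses in ISCs lay at Fam109a and Rnf43, and a called gain lay at Mif. At Fam109a 2 of 4 bins in the inner 1 kb downstream lost, and the level of that kilobase went from 17.1% to 3.50% in ISCs and from 13.6% to 3.25% in differentiated cells, while the inner upstream side stayed at 6.22% and 8.76% in ISCs. At Rnf43, a ubiquitin ligase gene that restrains Wnt receptors, shores near the 3′ end lost in 1 inner and 1 outer bin, and the outer kilobase went from 79.0% to 52.4% in ISCs. At Mif 1 outer downstream bin gained, in a kilobase at 56.7% and 73.5% in ISCs. Without a called bin, its inner kilobases went from 39.2% to 48.0% upstream and from 7.78% to 26.8% downstream in ISCs. Its outer upstream kilobase went from 96.3% to 94.5%. Zbtb22 and Adamtsl5 had no called shore bin in ISCs. The outer downstream kilobase of Adamtsl5 stood at 83.9% and 82.8% in ISCs, and the inner one at 15.8% and 19.8%. Its upstream side went from 37.1% to 37.5% (inner) and from 50.7% to 60.0% (outer). At Zbtb22 the inner kilobases went from 73.4% to 75.8% upstream and from 79.0% to 77.6% downstream in ISCs. The outer upstream one went from 93.4% to 87.2%. Since the study selected these genes, they are no independent evidence of a direction.

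Short motifs of intestinal transcription factors were counted in the shore bins on both strands, as a description of letters and not of bound sites. The HNF4 word CAAAGTCCA was present in 0.739% of the bins that lost in ISCs (0.521% to 1.02%) and in 0.0920% of those that gained (0.0251% to 0.235%), against 0.259% of all shore bins and 0.253% of all bins compared. In differentiated cells the shares were 0.492% and 0.198%. The GATA word AGATAAG was in 3.27% of losing and 1.98% of gaining bins in ISCs, against 2.29% of shore bins and 2.43% of all bins. The ETS word CCGGAAG was in 2.06% and 2.18%, against 1.45% and 1.37%. The shares in losing and gaining bins of ISCs, against all shore bins, were as follows for the other words: CDX (TTTATNG, 8.42% and 9.63% against 7.97%), TCF/LEF (ATCAAAG, 3.49% and 3.22% against 3.06%), TEAD (ACATTCC, 2.52% and 2.74% against 2.58%), AP-1 (TGANTCA, 5.81% and 5.29% against 5.29%) and FOXA (TGTTTAC, 3.11% and 2.39% against 2.51%). Among these words, the intervals that left out the share of all shore bins were those of CDX in gaining bins (8.77% to 10.6%) and FOXA in losing bins (2.65% to 3.63%) in ISCs. In differentiated cells they were those of TEAD in gaining bins (3.50%) and of CDX (9.33%), AP-1 (6.12%) and FOXA (2.98%) in losing bins. The shares over all bins compared, 9.47% for CDX, 2.75% for FOXA and 5.78% for AP-1, lay inside these intervals, and that of TEAD, 2.70%, lay below its interval. The HNF4 and TCF/LEF words share the letters CAAAG. None of these shares was tested, and bins of a gaining or losing run are not independent.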

How the data were processed

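DNA methylation was measured in 4 libraries, 1 for each group, and groups were taken from the labels. The authors trimmed the reads, mapped them to mm9 with Bismark, and deposited for each CpG cytosine the count of all calls, the count of methylated calls and their fraction. The deposited fraction matched the counts and was left aside. Bowtie is also named in the submitters' processing notes. The sources used here give neither versions nor the handling of duplicate reads, and remaining duplicates would make Fisher's test call too many bins.

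Positions were checked against the mm9 reference, and those at no CpG (0.465% to 0.850% of a library) were left out. Strands were summed, and calls were summed in 200-bp bins. Levels are methylated calls in percent of the calls of a bin, and means weighted bins equally. Called bins differed by over 15 points with an adjusted p (Fisher's exact test, Benjamini-Hochberg) below 0.05 (SciPy 1.17.1, NumPy 2.4.6, pandas 2.3.3, numba 0.67.0 and Matplotlib 3.10.9 under Python 3.11.15). Intervals are 95%, Wilson for levels and exact binomial for shares. Genes came from GENCODE M1, and sequences from the mm9 reference. The calling was tested on simulated data with known differences.

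Members, gene lists and tests were chosen with earlier results of these data known. Named regions were the longest runs of neighbouring called shore bins: 8 gaining and 8 losing with age in ISCs (1 of the losing runs is not reported here), 3 and 3 others in differentiated cells, and 3 and 3 for the difference between the populations at each age, ties going to the larger mean difference. From each gene list, up to 3 genes in each direction with the largest mean difference were eligible to be named. Printed sequences are the most changed bins of the first-ranked runs, with Zcchc3 passed over because its run lies in an untranslated region. The alternatives were minima of 20 calls and 4 CpGs, a CGI limit of 35 CpGs, shores of 1 kb, bins shifted by 100 bp, bins over 1000 calls left out, a difference over 30 points, 15 points without a test, thinned calls, and other averages. Sex chromosomes took no part in the comparisons.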

Additional observations from a re-analysis of the deposited data

Results flagged for a closer look

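The change with age had opposite signs in the cell populations in 2 groups of shores. Upstream of start-site CGIs the mean rose by 0.171 points in ISCs and changed by -0.310 points in differentiated cells. With a minimum of 4 CpGs both were positive, at 0.494 and 0.0922 points. In shores on the downstream side of CGIs outside protein-coding genes the changes were 0.103 and -0.346 points. On the upstream side of these CGIs the signs were opposite too (0.0142 and -0.260 points), but the ISC change lay within its counting interval. A gap between the populations was not confined to these shores. The mean of all bins compared fell less in ISCs (-0.271 points) than in differentiated cells (-0.723 points). Whether the opposite signs go beyond that general gap was not tested. None of the differences between the populations in these shores was tested, because each population had 1 library at each age.

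Among single shore bins, 19 changed with age in opposite directions in the 2 populations, and 11 differed between the populations in opposite directions at the 2 ages, and these differences were not tested either. Of 4349 ISC gains 11 were losses in differentiated cells and of 5009 ISC losses 8 were gains, against 213 of 43811 and 107 of 60325 over all bins. Of the 715 higher and 669 lower shore bins at P0, 8 and 3 were opposite at P21, against 104 of 11734 and 49 of 8974 over all bins. In the bin 88.5 bp upstream of the CGI of B4galt1, a galactosyltransferase gene, at chr4:40801801-40802000, ISCs went from 18.8% to 56.7% and differentiated cells from 47.8% to 27.8%. A bin of Myo10 at chr15:25736801-25737000 went from 14.1% to 34.2% in ISCs and from 31.6% to 12.02% in differentiated cells. A bin near Cdx2, the caudal homeobox gene that sets intestinal identity, at chr5:148113401-148113600, went from 66.3% to 12.8% in ISCs and from 33.2% to 32.2% in differentiated cells, and so was higher in ISCs at P0 and lower at P21. B4galt1, Myo10 and Cdx2 were chosen for mention after their values were seen.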

How the results depend on the processing

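No replicate could be left out, since each group had 1 library. No paired analysis was possible because each group had 1 library and no replicate numbers. The mean change in ISCs (-0.0661 points) turned positive with a minimum of 20 calls (0.0237), 4 CpGs (0.325), a CGI limit of 35 CpGs (0.0374) and shores of 1 kb (0.148), and was -0.123 with every call weighted equally and -0.180 with 1 value for each CGI. In differentiated cells it was -0.280, 0.0585, -0.231, -0.171, -0.694 and -0.490 under the same settings. The difference between the populations at P0 was -0.103 with shores of 1 kb and -0.0994 with every call weighted equally, and at P21 it was -0.415 with 4 CpGs, -0.438 with 35 CpGs, -0.422 with shores of 1 kb and -0.670 with every call weighted equally. The share of gains in ISCs was 52.7% with 4 CpGs, 51.0% with shores of 1 kb, 48.9% with 35 CpGs, 41.0% over 30 points, 49.0% without a test and 45.3% with thinned calls. In differentiated cells it was 49.1%, 46.9%, 46.0%, 32.8%, 44.8% and 40.1%. Called shore bins with age numbered 6016 in ISCs and 6075 in differentiated cells with 4 CpGs, and 5656 and 6346 with shores of 1 kb, where fewer bins are compared. Over 30 points they numbered 4405 and 3684, and 474 and 193 between the populations at P0 and P21. Without a test they numbered 36423, 32278, 25084 and 21584, and with thinned calls 5045 in differentiated cells and 272 and 110 between the populations. With shores of 1 kb the latter were 841 and 346. Upstream start-site shores in differentiated cells rose by 0.0922 points with 4 CpGs. The downstream change stayed negative in every alternative run, from -1.78 to -0.306 in ISCs. The cause of these shifts was not tested. The named runs kept their direction under the settings that could be applied to them, with 131 values within their counting interval and 5 outside it.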

Other observations

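Shores of the X chromosome were left out of the comparisons. Over 8183 of its shore bins the mean went from 72.2% to 72.6% in ISCs and from 72.4% to 72.2% in differentiated cells, against 67.03% in autosomal shores of ISCs at P0. The CGI bins of the X chromosome averaged 57.3% in ISCs at P0, against 31.4% on the autosomes. The sources used here do not give the sex of the pooled mice, and its part in these levels was not tested.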
